A study of Drosophila melanogaster with 40 samples.

Results

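Exercised males of 1 week were compared with nonexercised males of the same age in 4 fly genotypes. The comparison used the 16 male adult libraries of the 40 in the series, 8 from exercised and 8 from nonexercised males, chosen by their sex and treatment labels. Each genotype gave 2 exercised and 2 nonexercised libraries, and each library was made from a pool of 10 whole flies. Because whole bodies were pooled, fewer cells of a type and less RNA per cell cannot be told apart in any of the values given here.

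All flies carried the driver TinCΔ4-Gal4, which is active in cardiac tissue, together with 1 of 4 co-isogenic chromosomes at the attP2 site. WT males expressed the feline wild-type MYBPC3 allele in the heart, and A31P and R820W males expressed the feline alleles with those substitutions, which are associated with hypertrophic cardiomyopathy in cats. The attP2 males held the empty landing site and expressed no feline allele. MYBPC3 encodes cardiac myosin binding protein C, a protein of the thick filament.

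Exercised flies were sorted over CO2 on the day before, passed a climbing assay, spent the night on food, climbed for an hour in empty vials on a pulsed shaker, were assayed again and were then frozen. Nonexercised flies were collected over CO2, recovered for a day and were frozen. The study's methods say that assays were run at a fixed time of day, but give no clock hour and do not say when the nonexercised flies were frozen. Handling, time without food and the assays therefore differed together with exercise. Exercised males were also sequenced in lane 3 of a flow cell and nonexercised males in lanes 7 and 8 of another, so exercise, handling and flow cell cannot be told apart in any value of this comparison.

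Fruit flies climb when knocked down, a reflex called negative geotaxis, and repeated shaking makes use of it as endurance exercise. Muscle and nerve activity is known to switch on immediate-early genes, which code mostly for transcription factors and are transcribed within minutes of a stimulus. Physical stress, starvation and infection act through other known routes, among them the heat shock response, JNK and JAK/STAT signalling, insulin and Foxo signalling, and the Toll and Imd pathways that drive antimicrobial peptides.

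Counts per library ranged from 19169444 to 26815187 in exercised males and from 18493813 to 22398644 in nonexercised males. Sex markers fitted the labels, since 25 testis genes summed to 4497 to 5980 CPM (counts scaled to a common depth) in exercised males and 4138 to 5744 CPM in nonexercised males, against a median of 173 CPM in the females of the series. Exercised A31P replicate 2 and exercised R820W replicate 2 stood apart. Yolk and eggshell genes, which are made in the ovary and female fat body, summed to 5619 CPM in exercised A31P replicate 2 and 466 CPM in exercised R820W replicate 2, against 11.6 to 18.2 CPM in the other exercised males, 12.7 to 141 CPM in nonexercised males and a median of 14530 CPM in females. The 17 ovarian germline genes summed to 1010 CPM and 366 CPM in these libraries and to 104 to 125 CPM in the others. Of 22 yolk and eggshell genes tested, 13 were called higher in exercised males with both libraries. Without them 1 was higher and 2 were lower. The calls over all genes, and those of each list in the fit over the genotypes, were therefore repeated without both. Counts of separate arms, of list members by genotype and of gene classes or lengths were not repeated and include both libraries. Nonexercised attP2 replicate 1 also stood apart, with high immune peptide genes, with the 141 CPM of yolk and eggshell genes (12.7 to 19.3 CPM in the other nonexercised males) and with 4138 CPM of testis genes (5309 to 5744 CPM in the others).

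A gene was called significantly differentially expressed where the edgeR adjusted p was under 0.05 and the absolute Log2FC, the log2 fold change of exercised over nonexercised males with genotype as a block, was over 0.5. Of 14090 genes tested, 1610 (11.4%) were called, 820 of them (5.82%) higher and 790 (5.61%) lower in exercised males. Without exercised A31P replicate 2 and R820W replicate 2, 1502 of 14241 genes (10.5%) were called, 771 higher and 731 lower, and 1341 genes were called in both fits. All 8 exercised libraries lay above all 8 nonexercised ones for 810 genes (5.75%) and below them for 576 (4.09%). Scaling by library size alone gave a median Log2FC of 0.31 over all genes, in place of 0.01, and 3035 genes higher and 348 lower. Replicates were separate pools, and p-values of the fit over the genotypes measure the spread between pools of a genotype together with differences in response among the genotypes.

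Among the genes called over the genotypes, most had the same direction in each genotype. Of the 1610 genes called, 1494 (92.8%) had the same sign in attP2, WT, A31P and R820W males. Over all genes tested the share was 48.1%. The 1610 genes were called by a fit over the same 4 genotypes and the same libraries. Such a choice favours genes with a shared sign. The difference between these shares therefore cannot show how far the genotypes responded alike. Within single genotypes, 1074 genes (7.62%) were called in attP2 males, 1029 (7.3%) in WT males, 1513 (10.7%) in A31P males and 1126 (7.99%) in R820W males. In all 4 genotypes separately, 166 genes were called higher and 184 lower, while 7 were called in opposite directions in a pair of genotypes. Without the doubted libraries the A31P and R820W counts were 964 and 853. A test of whether the response differed among the genotypes called 18 genes (0.128%), and 96 without the doubted libraries.

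**Figure D1:**
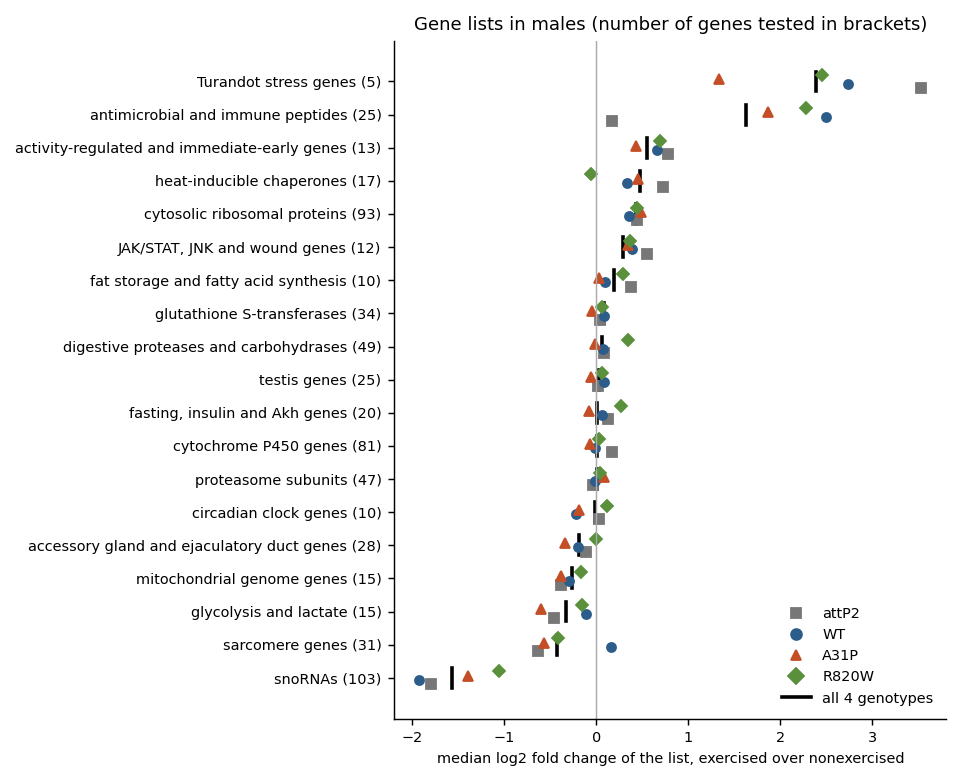
Median Log2FC (horizontal axis, exercised over nonexercised males) of each gene list, given down the page with its number of genes tested, for attP2 (squares), WT (circles), A31P (triangles) and R820W (diamonds) and for the fit over all 4 genotypes (black bars). Turandot genes had medians above 1 in all 4 genotypes, immune peptides had a median of 0.17 in attP2 males and of 1.87 to 2.50 in the others, and snoRNAs had medians between -1.92 and -1.05.

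Most genes of a list known to be switched on by activity rose. Of 13 activity-regulated and immediate-early genes, 7 were called higher and none lower, beside 5.82% of all genes called higher, and their median Log2FC was 0.55 beside 0.01 over all genes. Each of the 7 had all exercised libraries above all nonexercised ones, beside 5.75% of all genes. The same 7 to 0 count was found without the doubted libraries. They were Hr38, sr, Jra, puc, CG14186, CG11221 and CG13055.

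Hr38, on chromosome 2L from 20683462 to 20714588 of release 6 of the genome, encodes the fly NR4A nuclear receptor, a marker of recent neuronal activity. It had 31.1, 36.5 and 40.4 CPM (lowest, median and highest) in exercised males, against 5.995, 8.51 and 10.2 CPM in nonexercised males. The arms did not overlap, and the Log2FC of 2.14 ± 0.10 (SE, edgeR adjusted p = 4.22e-10) was a 4.41-fold difference. The genotypes gave 2.45 in attP2, 2.38 in WT, 1.94 in A31P and 1.81 in R820W males.

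The gene sr (3R, 18090803 to 18135583) encodes stripe, the fly relative of the EGR transcription factors, which is also needed for tendon cells. It had 25.6, 28.8 and 34.6 CPM in exercised males, against 7.14, 9.81 and 10.97 CPM in nonexercised males. Again no exercised library reached into the nonexercised range, at a Log2FC of 1.63 ± 0.08 (edgeR adjusted p = 1.76e-09). Jra, the fly c-Jun, had 46.9, 54.7 and 61.9 CPM in exercised males, against 26.4, 28.4 and 32.8 CPM in nonexercised males (Log2FC 0.90 ± 0.05). The phosphatase gene puc, a target and inhibitor of JNK signalling, had 61.5, 71.1 and 81.6 CPM in exercised males, against 38.7, 40.2 and 46.6 CPM in nonexercised males (Log2FC 0.82 ± 0.05). In both genes the arms were apart, and the 4 genotypes lay within 0.79 to 0.96 for Jra and 0.77 to 0.89 for puc. The 3 less studied genes had Log2FCs of 1.11 ± 0.07 (CG14186), 0.55 ± 0.07 (CG11221) and 1.40 ± 0.20 (CG13055).

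**Figure D2:**
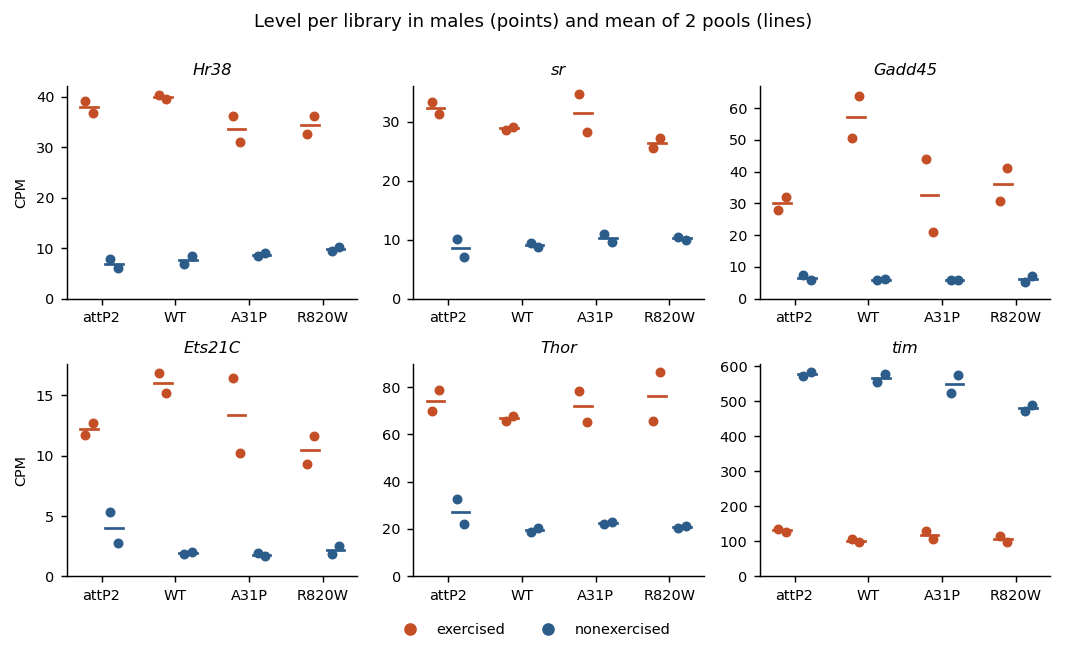
Level in CPM (vertical axis, linear from 0) of Hr38, sr, Gadd45, Ets21C, Thor and tim in each male library, by genotype, with exercised males (orange) left of nonexercised males (blue), points for pools and lines for the mean of 2 pools. In all 4 genotypes the exercised pools lay above the nonexercised pools for the first 5 genes and below them for tim, which had 96.5 to 135 CPM in exercised and 472 to 582 CPM in nonexercised males.

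Some stress signalling genes rose as well. Of 12 JAK/STAT, JNK and wound genes, 5 were called higher and none lower, beside 5.82% and 5.61% of all genes. The counts were the same without the doubted libraries. In 6 genes all exercised libraries lay above all nonexercised ones, beside 5.75% of all genes. The list median was 0.29. Gadd45 (2R, 7249161 to 7250655), a stress-inducible gene that feeds into MAP kinase signalling, had 21.0, 36.7 and 64.0 CPM in exercised males, against 5.41, 5.91 and 7.49 CPM in nonexercised males. Its lowest exercised pool was still above every nonexercised pool, and its Log2FC was 2.61 ± 0.17 (edgeR adjusted p = 3.11e-08). Ets21C (2L, 544925 to 552923), an ETS transcription factor that acts downstream of JNK, had 9.35, 12.2 and 16.9 CPM in exercised males, against 1.67, 1.97 and 5.30 CPM in nonexercised males. The highest nonexercised value was that of attP2 replicate 1, and the Log2FC was 2.42 ± 0.20 (edgeR adjusted p = 2.80e-07).

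Genes of the JAK/STAT ligands and of their feedback inhibitor moved together. Reads of the ligand gene upd2 numbered 11 to 29 per exercised library, against 0 to 2 per nonexercised library. The summed counts of 155 in exercised and 8 in nonexercised males gave a depth-scaled ratio of 14.8 (95% counting interval 7.34 to 34.9). The ligand gene upd3 had 0.652, 0.842 and 1.56 CPM in exercised males, against 0, 0.200 and 0.589 CPM in nonexercised males, which were low but separate ranges (Log2FC 2.01 ± 0.44, edgeR adjusted p = 0.00220). Socs36E, a JAK/STAT target that damps the pathway, had 48.1, 63.8 and 90.1 CPM in exercised males, against 22.1, 24.9 and 29.7 CPM in nonexercised males. No arm overlapped the other, and its Log2FC ran from 1.11 in A31P to 1.86 in WT males.

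The 12 genes with the highest Log2FC, among called genes with the same sign in every genotype, separate arms and at least 5 CPM, included Hr38, Gadd45 and Ets21C. The leading gene was CG9733, which codes for a trypsin-like serine protease, with 4.91, 8.74 and 15.6 CPM in exercised males, against 0.638, 1.14 and 2.48 CPM in nonexercised males (Log2FC 2.79 ± 0.23, edgeR adjusted p = 2.80e-07). Fst (3R, 9644978 to 9646154), the Frost gene known for induction during recovery from cold, had 31.6, 61.4 and 107 CPM in exercised males, against 5.80, 7.47 and 18.7 CPM in nonexercised males (Log2FC 2.74 ± 0.25). Separate arms were a condition for naming these genes. CG5966 (X, 5988791 to 5992640), a predicted triglyceride lipase, had 144, 311 and 486 CPM in exercised males, against 54.0, 57.7 and 116 CPM in nonexercised males (Log2FC 2.17 ± 0.19). The remaining members were the immune peptide genes CG43202, CG33470 and IM10, the noncoding RNA CR45197, and CG5953 and CG13325, with Log2FCs between 2.02 and 2.67. CR45197 lies within sgg on the same strand and Fst within Dh44 on the other, and the strand setting of the counting is not given in the sources used here, so reads of these overlapping pairs could be shared.

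Most antimicrobial peptide genes rose. Of 25 antimicrobial and immune peptide genes, 23 were called higher and none lower, beside 5.82% and 5.61% of all genes. Their median Log2FC was 1.63, and 21 were called higher without the doubted libraries. These genes, targets of the Toll and Imd pathways, summed to 2442, 2934 and 4766 CPM in exercised males, against 715, 892 and 3162 CPM in nonexercised males. The highest nonexercised sum was that of attP2 replicate 1, and the other nonexercised libraries did not pass 1186 CPM. The genotypes differed in count, with 20 genes called higher in WT, 16 in A31P, 16 in R820W and 0 in attP2 males. Over all genes, 7.3% to 10.7% were called in either direction in single genotypes. The attP2 median was 0.17, against 2.50 in WT, 1.87 in A31P and 2.28 in R820W males. No gene of the list passed the test of a difference among genotypes. All exercised libraries lay above all nonexercised ones for 2 of the 25, beside 5.75% of all genes. Without the doubted libraries and nonexercised attP2 replicate 1, a set of omissions chosen after the data were seen, 24 were called higher.

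AttA, which encodes the antibacterial peptide Attacin A, shows the library that stood apart. Exercised attP2 males had 80.7 and 63.0 CPM, against 146 and 0.957 CPM in nonexercised attP2 males. Exercised WT males had 228 and 210 CPM, against 0.739 and 2.91 CPM in nonexercised WT males. Apart from attP2 replicate 1, no nonexercised library was above 2.91 CPM. Exercised A31P males had 100.2 and 56.4 CPM, against 1.00 and 1.31 CPM in nonexercised A31P males. Exercised R820W males had 147 and 379.9 CPM, against 0.937 and 0.719 CPM in nonexercised R820W males. The pooled Log2FC of 5.24 ± 1.24 (edgeR adjusted p = 0.00369) therefore averaged -0.05 in attP2 males with 6.07 to 8.31 in the other genotypes. AttA is nearly identical to AttB, and reads could be split between the copies.

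AttC, DptB and AttB, whose Log2FCs were 5.24 ± 1.19, 4.66 ± 1.06 and 4.56 ± 1.18, were also high in this library. Without it the Log2FCs were 7.06 for AttA, 6.82 for AttC, 6.39 for DptB and 6.57 for AttB. IM10 and CG33470, a pair of near copies that encode Baramicin A peptides, were expressed in every library. CG33470 had 376, 524 and 623 CPM in exercised males, against 72.7, 90.0 and 359 CPM in nonexercised males (Log2FC 2.11 ± 0.30, edgeR adjusted p = 5.58e-05). Nonexercised attP2 replicate 1 held the 359 CPM. Separate arms were a condition for naming CG33470 and IM10.

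Turandot genes encode secreted peptides that build up after heat, injury and infection. All 5 that passed the filter on low counts were called higher, beside 5.82% of all genes. A further 3 members of the family did not pass it. TotA had 398, 1654 and 2715 CPM in exercised males, against 74.7, 266 and 551 CPM in nonexercised males. Exercised pools exceeded the nonexercised range except for 1 pool each of A31P and R820W males, and the Log2FC of 2.39 ± 0.42 (edgeR adjusted p = 0.000340) ranged from 1.33 in A31P to 3.56 in attP2 males. TotC had 114.8, 687 and 1083 CPM in exercised males, against 13.7, 61.3 and 187 CPM in nonexercised males (Log2FC 3.12 ± 0.50). TotX and TotB had Log2FCs of 2.33 ± 0.32 and 2.90 ± 0.53. TotM (Log2FC 2.04 ± 0.77, edgeR adjusted p = 0.0490) was not called in 11 of the 16 fits that left out a single library (highest adjusted p 0.100). Turandot genes had their highest list median, 3.53, in attP2 males. The low attP2 median of the antimicrobial peptides included nonexercised attP2 replicate 1, which was high for those genes. By genotype, 3 Turandot genes were called higher in attP2, 2 in WT, 0 in A31P and 2 in R820W males. No Turandot gene passed the test of a difference among genotypes.

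**Figure D3:**
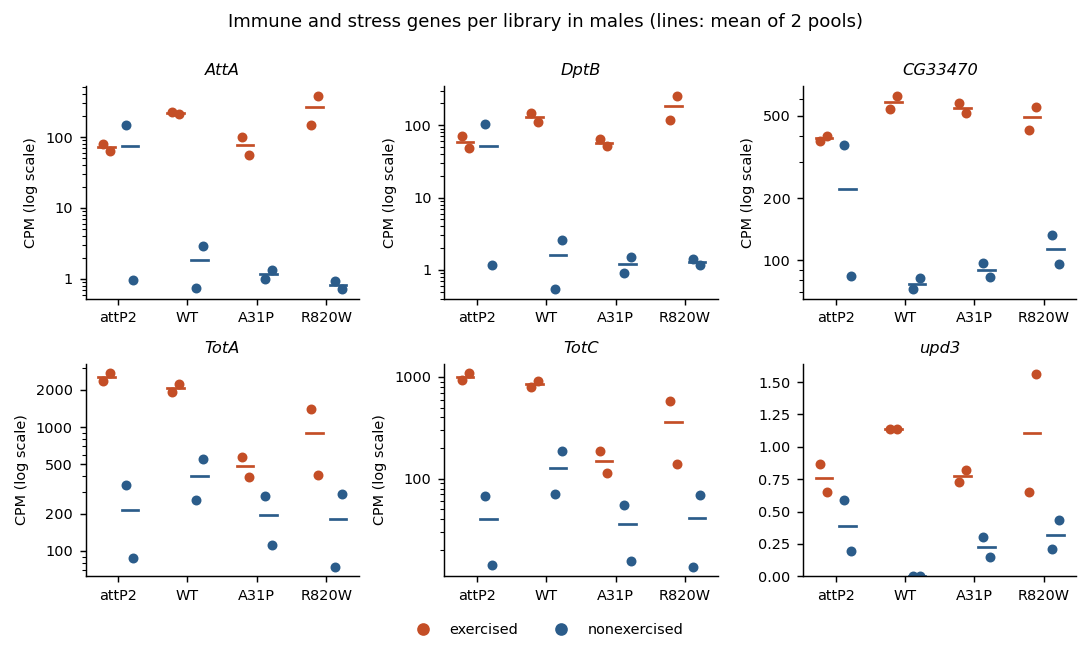
Level in CPM (log scale, except upd3, which is linear from 0) of AttA, DptB, CG33470, TotA, TotC and upd3 in each male library by genotype, with exercised males (orange) left of nonexercised males (blue) and lines for the mean of 2 pools. A single nonexercised attP2 pool lay with the exercised pools for AttA (146 CPM) and DptB (103 CPM), while the other nonexercised pools lay at or below 2.91 CPM for both genes.

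Heat-inducible chaperone genes rose in part. Of 17 such genes, 5 were called higher and 1 lower, beside 5.82% and 5.61% of all genes. Without the doubted libraries 4 were called higher. By genotype, 5 were higher and 2 lower in attP2 males, 5 higher in WT males and 7 higher in A31P males, while in R820W males none was higher and 2 were lower. Over all genes, 7.3% to 10.7% were called in either direction in single genotypes. The interaction test called 3 of the 17, beside 0.128% of all genes. The fly has 6 nearly identical Hsp70 copies, among which reads may be split, so their sum is given first. The summed copies had 88.3, 123 and 206 CPM in exercised males, against 35.1, 67.9 and 120.5 CPM in nonexercised males, and the ranges overlapped. The log2 ratio of the group means was 1.86 in attP2, 0.96 in WT, 1.17 in A31P and -0.07 in R820W males, where the nonexercised pools already held 110.3 and 120.5 CPM. Among the copies, Hsp70Ab (Log2FC 1.92 ± 0.36), Hsp70Ba (1.53 ± 0.34) and Hsp70Bb (0.57 ± 0.16) were called, of which Hsp70Bb fell under the limit without nonexercised attP2 replicate 2 (0.46) or exercised A31P replicate 1 (0.48). Hsp70Aa, Hsp70Bbb and Hsp70Bc did not pass the test, with Log2FCs of 1.29 ± 0.93, 0.88 ± 0.65 and 0.77 ± 0.41. Hsp70Aa reached 28.9 CPM in exercised attP2 replicate 2 and no more than 1.77 CPM in any other male library. Without that replicate its Log2FC was -0.49.

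Hsp68, a related inducible chaperone, had 56.3, 80.2 and 95.8 CPM in exercised males, against 39.3, 43.0 and 51.7 CPM in nonexercised males. Its arms were apart, at a Log2FC of 0.83 ± 0.10 (edgeR adjusted p = 7.89e-06). Hsp26, a small heat shock protein gene that is also active in the female germline, had 51.7, 61.7 and 174 CPM in exercised males, against 39.3, 43.4 and 46.1 CPM in nonexercised males. The 174 CPM belonged to exercised A31P replicate 2, and the Log2FC of 0.78 ± 0.19 was 0.45 without the doubted libraries, below the limit for a call. Hsp67Bc fell by 0.61 ± 0.16 on the log2 scale, and was not called without nonexercised attP2 replicate 1, at -0.49. The constitutive chaperone gene Hsc70-4 had 1852, 2082 and 2618 CPM in exercised males, against 1328, 1498 and 1632 CPM in nonexercised males (Log2FC 0.52 ± 0.06). It lay just under the limit without nonexercised attP2 replicate 2 (0.49) or exercised attP2 replicate 2 (0.49).

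Clock genes moved in both directions, with 2 of 10 called higher and 2 lower, beside 11.4% of all genes called, and a median of -0.01. In 5 of the 10 the arms were separate, 2 with exercised males above and 3 below, beside 5.75% and 4.09% of all genes. The gene tim (2L, 3493986 to 3508119) encodes Timeless, which with Period represses its own transcription in a daily cycle. It had 96.5, 111 and 135 CPM in exercised males, against 472, 563 and 582 CPM in nonexercised males. The exercised pools held about 0.21 of the nonexercised level, with a Log2FC of -2.25 ± 0.06 (edgeR adjusted p = 2.27e-12) and -2.14 to -2.47 in the 4 genotypes. The gene per (X, 2685580 to 2692780) had 9.82, 11.8 and 13.0 CPM in exercised males, against 21.4, 31.7 and 33.9 CPM in nonexercised males (Log2FC -1.35 ± 0.08). Genes known to cycle in the opposite phase were higher. The photoreceptor gene cry had 142, 165 and 187 CPM in exercised males, against 74.9, 92.2 and 99.1 CPM in nonexercised males (Log2FC 0.82 ± 0.06). Clk, which encodes the activator of tim and per, had 45.5, 60.4 and 65.1 CPM in exercised males, against 30.2, 39.8 and 45.1 CPM in nonexercised males (Log2FC 0.57 ± 0.07). All of these arms were apart. The methods state a fixed time of day for the assays, and whether the hour of freezing differed between the arms was not tested.

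Fasting genes moved in both directions, with 6 of 20 higher and 5 lower, beside 5.82% and 5.61% of all genes, and a median of 0.01. With the doubted libraries left out, 7 were higher and 4 lower. Thor (2L, 3478434 to 3479612), the 4E-BP inhibitor of translation and a Foxo target, had 65.5, 68.8 and 86.5 CPM in exercised males, against 18.9, 21.6 and 32.7 CPM in nonexercised males. The ranges were far apart, at a Log2FC of 1.69 ± 0.09 (edgeR adjusted p = 2.38e-09), and the genotypes lay between 1.44 and 1.87. The small heat shock protein gene l(2)efl, which is also a Foxo target, had 67.6, 79.7 and 95.03 CPM in exercised males, against 21.9, 31.4 and 52.9 CPM in nonexercised males (Log2FC 1.31 ± 0.13). The triglyceride lipase gene bmm had 128, 173 and 209.5 CPM in exercised males, against 71.9, 88.4 and 100.4 CPM in nonexercised males (Log2FC 0.97 ± 0.08). For these 3 genes no nonexercised pool reached the exercised range. The gene to (takeout), which is tied to feeding and to the clock, had 45.5, 65.9 and 111 CPM in exercised males, against 113, 149 and 176 CPM in nonexercised males (Log2FC -1.05 ± 0.13).

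Of 10 fat storage and fatty acid synthesis genes, 2 were higher and 1 lower, beside 5.82% and 5.61% of all genes. AcCoAS, acetyl-CoA synthase, had 686, 808 and 1042 CPM in exercised males, against 425, 556 and 642 CPM in nonexercised males (Log2FC 0.59 ± 0.07). The lipid droplet gene Lsd-2 had a Log2FC of 0.55 ± 0.06, and mdy, which encodes a diacylglycerol acyltransferase, fell by 0.53 ± 0.06 on the log2 scale, with overlapping ranges in both. Without nonexercised WT replicate 2 mdy was at -0.49. Of 15 glycolysis and lactate genes, 3 were lower, beside 5.61% of all genes. They were Gapdh1, Gapdh2 and Gpo-1, at Log2FCs of -0.72 ± 0.14, -0.52 ± 0.06 and -0.59 ± 0.11. Gapdh2 was at -0.49 without nonexercised attP2 replicate 2 or exercised A31P replicate 1, and Gpo-1 at -0.49 without the doubted libraries. Scaled by library size alone none of the 15 was called, and the list median was -0.03 in place of -0.33. Digestive protease and carbohydrase genes had 9 of 49 higher and 6 lower, beside 5.82% and 5.61% of all genes. Among them Mal-B1, a maltase gene, had 51.5, 72.6 and 94.3 CPM in exercised males, against 17.2, 26.3 and 49.0 CPM in nonexercised males (Log2FC 1.38 ± 0.18). Jon66Ci had a Log2FC of 1.60 ± 0.36, and the protease genes gammaTry and Ser8 fell by 1.21 ± 0.34 and 1.12 ± 0.21 on the log2 scale.

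Detoxification genes rose in small groups within large families. Of 34 glutathione S-transferase genes, 7 were higher and 1 (GstE10) lower, beside 5.82% and 5.61% of all genes, at a median of 0.08, and without the doubted libraries GstE10 was not called. GstE3 had 85.4, 100.2 and 114 CPM in exercised males, against 36.5, 46.3 and 56.3 CPM in nonexercised males (Log2FC 1.08 ± 0.07, edgeR adjusted p = 2.88e-08). GstD8 and GstE7 had Log2FCs of 1.41 ± 0.23 and 0.97 ± 0.11. All 3 had exercised pools above every nonexercised pool. Of 19 redox enzyme genes, 3 were higher, namely GstD1 (Log2FC 0.67 ± 0.05), GstE1 (0.59 ± 0.05) and Keap1 (0.77 ± 0.07), which encodes the sensor that restrains the oxidative stress factor CncC. Of 81 cytochrome P450 genes, 10 were higher and 6 lower, beside 5.82% and 5.61% of all genes, at a median of 0.01. The share called lower was thus near that of all genes. With the doubted libraries left out, 9 were higher and 5 lower. In A31P males 7 were higher and 12 lower, beside 10.7% of all genes called there in either direction. The near copies Cyp12d1-d and Cyp12d1-p had Log2FCs of 1.32 ± 0.06 and 1.33 ± 0.07. Cyp12d1-d had 109, 129 and 159.5 CPM in exercised males, against 40.6, 52.9 and 64.4 CPM in nonexercised males, with no overlap. The P450 gene Cyp4d21 (2L, 7605600 to 7607701) fell and had 45.9, 53.2 and 65.7 CPM in exercised males, against 156, 171 and 209.7 CPM in nonexercised males (Log2FC -1.70 ± 0.05, edgeR adjusted p = 2.27e-12). Cyp6a19 had the largest fitted value of the family (3.80 ± 1.06), and it rested in size on 56.7 CPM in exercised A31P replicate 2 and 13.5 CPM in exercised R820W replicate 2, being 1.25 without them.

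Genes for the cytosolic ribosome shifted by a small and even amount. Of 93 ribosomal protein genes, 82 were higher at an adjusted p under 0.05 whatever the fold, beside 19.7% of all genes. All exercised libraries lay above all nonexercised ones for 76, beside 5.75% of all genes. With the fold limit, 25 were called higher and none lower, at a median Log2FC of 0.43, and by library size alone 79 were called higher. With the doubted libraries left out, 23 were called higher and 1 lower. Their summed level was 35950, 37960 and 41380 CPM in exercised males, against 26690, 29070 and 30380 CPM in nonexercised males, with no overlap. Medians by genotype were 0.44 in attP2, 0.35 in WT, 0.48 in A31P and 0.44 in R820W males. RpL34b had 107, 119 and 124 CPM in exercised males, against 69.1, 76.5 and 84.9 CPM in nonexercised males (Log2FC 0.61 ± 0.04, edgeR adjusted p = 4.95e-08). RpS5b, a copy used in the germline, had its largest values in the doubted libraries (90.3 and 32.3 CPM), and its Log2FC of 1.27 was 0.52 without them. By comparison, 0 of 47 proteasome subunit genes were called in either direction by edgeR. At an adjusted p under 0.05 whatever the fold, 7 of them were higher and 1 lower, beside the 19.7% of all genes higher.

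Some sarcomere genes were lower in exercised males, but none in WT males taken alone. Of 31 sarcomere genes, 11 were called lower and none higher, beside 5.61% and 5.82% of all genes. Their median was -0.42, and all 31 fitted values were negative. Without the doubted libraries 8 were called lower, and 4 by library size alone, where the median was -0.13. By genotype, 20 were called lower in attP2, 16 in A31P, 10 in R820W and 0 in WT males, where the median was 0.16. In single genotypes, 7.3% to 10.7% of all genes were called in either direction. The interaction test across genotypes called 3 of the 31, beside 0.128% of all genes. The summed level was 17150, 22460 and 26430 CPM in exercised males, against 23340, 31810 and 39800 CPM in nonexercised males.

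Act88F encodes the actin of the indirect flight muscle. Exercised attP2 males had 38.1 and 49.9 CPM, against 448 and 440.4 CPM in nonexercised attP2 males. Exercised WT males had 95.4 and 91.6 CPM, against 62.3 and 59.8 CPM in nonexercised WT males. The sign in WT males was thus opposite to that in attP2 males. Exercised A31P males had 42.7 and 31.02 CPM, against 149.9 and 170.4 CPM in nonexercised A31P males. Exercised R820W males had 120.2 and 88.8 CPM, against 341 and 646 CPM in nonexercised R820W males. The Log2FCs were -3.33, 0.61, -2.12 and -2.24 in attP2, WT, A31P and R820W males, and they differed among the genotypes (edgeR interaction adjusted p = 0.00382, and 0.0516 without nonexercised WT replicate 1). In WT males alone the difference did not pass the test (edgeR adjusted p = 0.152).

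Fhos, a formin needed to build flight muscle sarcomeres, was likewise lower in exercised attP2, A31P and R820W males and not in WT males. Exercised attP2 males had 224 and 368 CPM, against 2223 and 2212 CPM in nonexercised attP2 males. In R820W males the exercised pools had 472 and 441 CPM, against 1614 and 2560 CPM in the nonexercised pools. A31P males had 284 and 236 CPM when exercised, against 437 and 425 CPM when nonexercised. WT males stood at 444 and 479 CPM when exercised, against 332 and 399 CPM when nonexercised. The exercised pools thus lay between 224 and 479 CPM and the nonexercised ones between 332 and 2560 CPM (edgeR interaction adjusted p = 0.00382). The flight muscle gene fln (flightin, a myosin-binding protein) had Log2FCs of -1.44, 0.00, -1.94 and -0.89 in attP2, WT, A31P and R820W males, and Mlc2, the myosin regulatory light chain, of -1.18, 0.02, -1.01 and -0.99. Neither passed the interaction test (edgeR adjusted p = 0.288 and 0.0528).

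**Figure D4:**
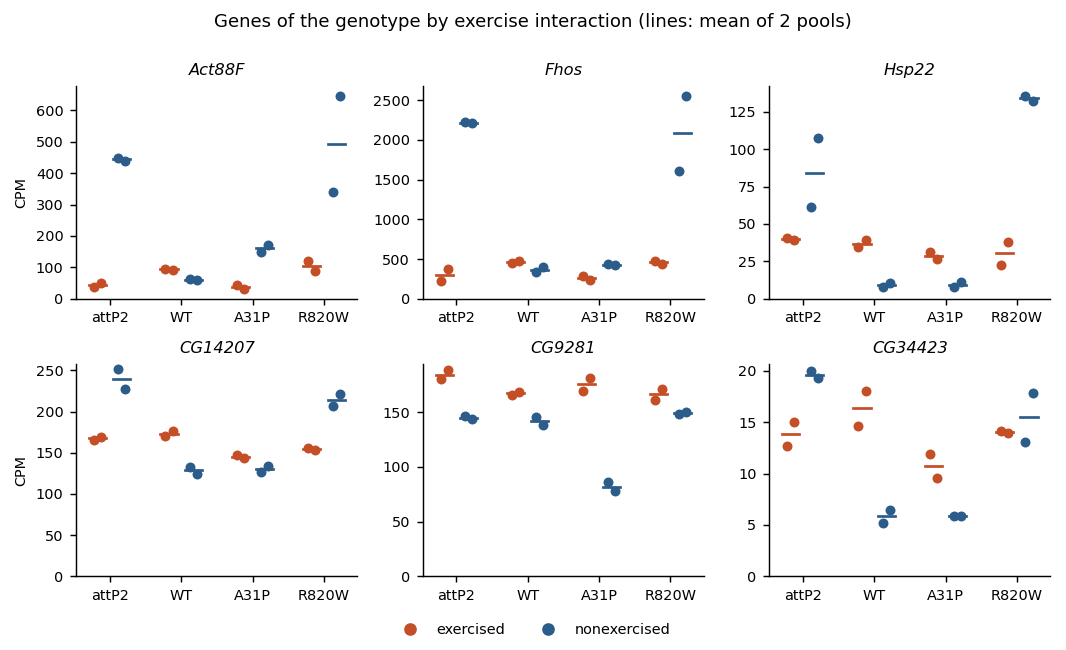
Level in CPM (vertical axis, linear from 0) of Act88F, Fhos, Hsp22, CG14207, CG9281 and CG34423, the 6 genes with the lowest interaction p at 5 CPM or more, in each male library by genotype, with exercised males (orange) left of nonexercised males (blue) and lines for the mean of 2 pools. Hsp22 had 22.7 to 40.6 CPM in exercised and 7.59 to 136 CPM in nonexercised pools, Act88F 31.02 to 120.2 CPM in exercised and 59.8 to 646 CPM in nonexercised pools, and CG9281 161 to 189 CPM in exercised and 77.7 to 149.8 CPM in nonexercised pools.

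Chaperone genes of the interaction differed from the muscle genes in A31P males. Hsp22, a mitochondrial small heat shock protein gene, had 40.6 and 39.1 CPM in exercised attP2 males, against 61.0 and 107 CPM in nonexercised attP2 males. In R820W males it had 22.7 and 38.2 CPM after exercise, against 136 and 132 CPM without. WT males went the other way, with 34.4 and 39.5 CPM in exercised WT males, against 7.59 and 10.2 CPM in nonexercised WT males. So did A31P males, with 30.9 and 26.6 CPM in exercised A31P males, against 7.61 and 11.1 CPM in nonexercised A31P males. The Log2FCs of -1.08, 2.06, 1.62 and -2.14 (attP2, WT, A31P, R820W) were each called, and the pooled value was 0.01 ± 0.51. Hsp22 lies within Hsp67Bb on the same strand, so reads could be shared. CG14207, which encodes the chaperone HspB8, had Log2FCs of -0.52, 0.43, 0.15 and -0.47 in the same order of genotypes. CG34423 had -0.50, 1.49, 0.87 and -0.14. CG9281, an ABC-type ATPase gene, differed in another way, since nonexercised A31P males had 85.9 and 77.7 CPM and the other nonexercised males 139 to 149.8 CPM. By genotype, its Log2FC was 1.10 in A31P males and 0.16 to 0.34 in the others. The interaction adjusted p-values of edgeR were 0.00315 for Hsp22, 0.00394 for CG14207, 0.0195 for CG34423 and 0.00789 for CG9281. CG9281 did not pass without nonexercised A31P replicate 2 (0.0898) or nonexercised WT replicate 1 (0.0516). CG34423 did not pass without nonexercised A31P replicate 1 (0.0532) or 2 (0.0865), nonexercised attP2 replicate 1 (0.0567), nonexercised WT replicate 1 (0.0991), exercised attP2 replicate 1 (0.0710) or exercised WT replicate 2 (0.0708).

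Most small noncoding RNAs were lower in exercised males. Of 103 snoRNAs tested from a list of 309, 86 were called lower and 3 higher, and 87 and 2 without the doubted libraries, beside 5.61% of all genes called lower. Their median Log2FC was -1.56. SnoRNAs guide the modification and processing of ribosomal RNA, and the rest of the class below serves splicing, tRNA processing and protein targeting. The snoRNAs summed to 662, 796 and 1090 CPM in exercised males, against 3048, 4278 and 5228 CPM in nonexercised males, so that no pools overlapped. Of 20 snRNA genes, 13 were lower and 1 higher. RNaseP:RNA, the RNA of the enzyme that trims tRNA precursors, had 73.0, 104 and 146 CPM in exercised males, against 1182, 1438 and 1982 CPM in nonexercised males (Log2FC -3.82 ± 0.16, edgeR adjusted p = 1.50e-10). It lies within CG1746 on the same strand.

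The same fall was found in other short RNAs. The snoRNA inside CG32479, snoRNA:CG32479-a, had 2.93, 3.31 and 4.78 CPM in exercised males, against 54.8, 74.6 and 111 CPM in nonexercised males (Log2FC -4.44 ± 0.12). The U3 snoRNA copy snoRNA:U3:54Aa had 26.0, 39.5 and 50.9 CPM in exercised males, against 404, 509.9 and 712 CPM in nonexercised males (Log2FC -3.79 ± 0.12). In the spliceosomal RNA snRNA:U11 the values were 9.08, 13.4 and 20.2 CPM in exercised males, against 129, 189.8 and 250.1 CPM in nonexercised males (Log2FC -3.74 ± 0.16). Separate ranges were a condition for naming these RNAs. The 6 U2 copies, among which reads may be split, summed to 55.9, 80.5 and 112 CPM in exercised males, against 512, 979 and 1528 CPM in nonexercised males.

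Measures of library composition moved with the small RNAs. The 2 7SL genes, which give the RNA of the signal recognition particle, took 2.09% to 3.56% of counts in exercised males, against 11.3% to 18.2% in nonexercised males. Reads of ribosomal RNA genes took 4.64% to 8.13% of counts in exercised males, against 7.44% to 11.8% in nonexercised males. Among protein-coding genes, the medians of classes by summed exon length lay between -0.03 and 0.04. Calls were more frequent in the shortest class, with 52 higher and 47 lower of 427 genes up to 500 nt. Of 2133 genes over 4000 nt, 41 were higher and 61 lower. The part of transcript length in these calls was not tested. The part of library preparation in the fall of the small RNAs was not tested, and it cannot be told apart from exercise here.

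**Figure D5:**
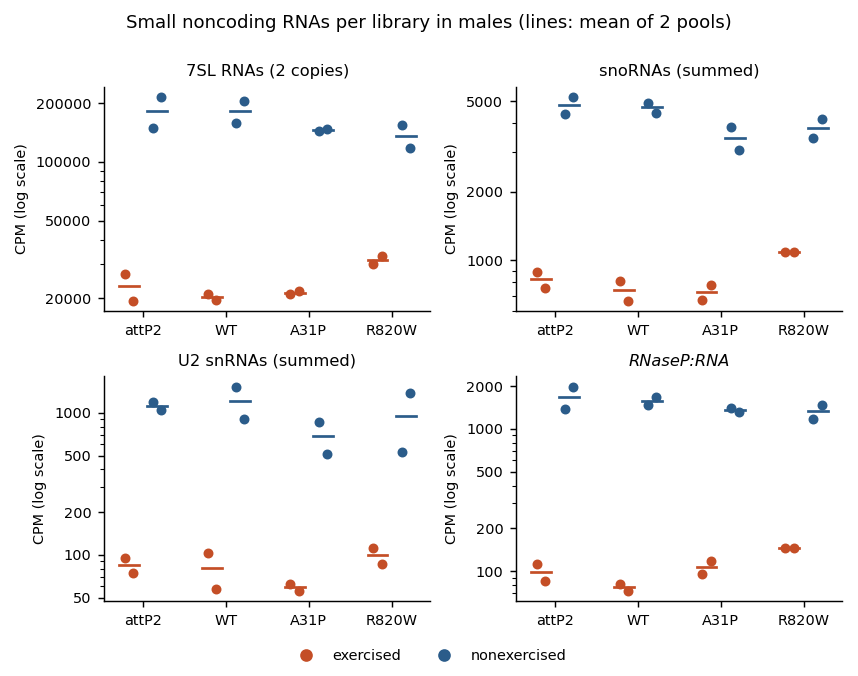
Level in CPM (vertical axes, log scale) of the 2 7SL copies summed, the snoRNAs summed, the 6 U2 snRNA copies summed and RNaseP:RNA in each male library by genotype, with exercised males (orange) left of nonexercised males (blue) and lines for the mean of 2 pools. Every exercised pool lay below every nonexercised pool in all 4 panels, with 7SL at 19340 to 32940 CPM in exercised and 117400 to 215200 CPM in nonexercised males.

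Fbp1, a receptor for hexameric storage proteins in the larval fat body, had the lowest Log2FC of the genes with separate arms and a mean of at least 5 CPM (-8.28 ± 0.32). It had 0 to 3 reads per library in exercised males, against 151 to 388 reads in nonexercised males. The summed counts of 8 and 2190 made exercised males 357.9-fold lower (95% counting interval 181.4 to 829.9). In larvae of the series the gene had a median of 22240 CPM. The nonexercised male median was 0.0565% of that level and the exercised male median 0.000104%. Larval libraries shared lanes 7 and 8 with those of nonexercised males, and no larval library shared the lane of exercised males.

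Other genes that are high in larvae did not all follow Fbp1. Fbp2 and Lsp1alpha, which are likewise known from the larval fat body, stood in exercised males at 0.00454% and 0.00895% of their larval medians, against 0.0527% and 0.0637% in nonexercised males. Lsp1gamma stood at 0.0598% in exercised males, against 0.143% in nonexercised males, and Lsp2 at 1.44% against 2.34%. Lsp1beta went the other way, at 0.147% in exercised males, against 0.108% in nonexercised males. These genes were chosen after the value of Fbp1 was seen. The part of reads passing between libraries of a lane was not tested.

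Among protein-coding genes with separate arms and a mean of at least 5 CPM, CG18302, a predicted lipase gene, and tim had the next lowest Log2FCs after Fbp1. CG18302 had 4.52, 6.09 and 11.9 CPM in exercised males, against 28.4, 38.2 and 44.8 CPM in nonexercised males (Log2FC -2.50 ± 0.17). Drsl4, a Drosomycin-like peptide gene outside the immune list, had 12.2, 24.7 and 28.6 CPM in exercised males, against 42.5, 61.7 and 67.3 CPM in nonexercised males (Log2FC -1.47 ± 0.13). CG10505, an ABC transporter gene, had 3.57, 6.48 and 8.47 CPM in exercised males, against 14.0, 20.9 and 24.8 CPM in nonexercised males (Log2FC -1.66 ± 0.10). The larval serum protein gene Lsp1gamma, to which the lane limit given for Fbp1 also applies, had a Log2FC of -1.53 ± 0.25. CG3739 had one of -1.42 ± 0.20, and CG33511, CG11529 and CG40472 lay between -1.60 and -1.70.

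The male reproductive lists differed in their calls. Of 25 testis genes none was called by edgeR. At an adjusted p under 0.05 whatever the fold, 5 were higher and 2 lower, beside 19.7% of all genes higher. The share higher was thus near that of all genes. Of 28 accessory gland and ejaculatory duct genes, 2 were higher and 5 lower, beside 5.82% and 5.61% of all genes. Without the doubted libraries 2 were higher and 2 lower. The list median of -0.18 turned to 0.11 by library size alone. Acp98AB, a seminal fluid protein gene, had 224, 324 and 354 CPM in exercised males, against 110.4, 152 and 219 CPM in nonexercised males (Log2FC 0.88 ± 0.14). Acp62F, which encodes a seminal protease inhibitor, had 76.8, 105 and 114 CPM in exercised males, against 119, 146 and 168 CPM in nonexercised males (Log2FC -0.57 ± 0.08). Of 13 eye genes, which mark heads, edgeR called none. At an adjusted p under 0.05 whatever the fold, 5 were higher and 5 lower. Of all 14090 genes, 19.7% were higher at that limit and 5286 passed it in either direction.

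The same treatment contrast in females, which also coincides with the flow cell, called 5249 of 14457 genes, 1968 higher and 3281 lower. The exercised-over-nonexercised difference was unlike in males and females for 4229 genes (29.3%) by an interaction over the 32 adult libraries. Exercised females were sequenced in lane 1 and exercised males in lane 3, while nonexercised flies of both sexes shared lanes 7 and 8. Sex and the lane of the exercised flies therefore cannot be told apart in these differences. Of the 12 genes with the highest Log2FC in males, 11 had the same sign in females and 6 differed between the sexes, of which CG13325 had -0.20 in females. Hr38 was 1.07 higher on the log2 scale in males than in females, where it was 1.05. Gadd45 and CG5953 were 2.26 and 2.00 higher in males, with 0.33 and 0.07 in females. CG13325, Fst and CG43202 were higher in males by 2.22, 1.27 and 1.67. Thor had -0.04 in females, and tim, at -2.49 in females, did not pass the test of a difference between the sexes.

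The small RNAs went the opposite way in the female libraries, whose exercised arm had a lane of its own. Of the 12 genes with the lowest Log2FC in males, 11, all of them noncoding RNAs, differed between the sexes and had a positive value in females. RNaseP:RNA had a Log2FC of 0.75 in females and snRNA:U2:38ABa one of 3.93. The snoRNA median was 3.37 in females beside -1.56 in males. Fbp1 was the exception, at -9.02 in females.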

How the data were processed

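RNA of whole flies was depleted of ribosomal RNA and sequenced by the authors, who demultiplexed with bcl2fastq, checked reads with FastQC, trimmed with Cutadapt, removed residual ribosomal reads with TopHat, and used CLC Genomics Workbench for alignment to genome release 6 and for counting. The counts the authors deposited are whole reads per gene, with no normalization. The 120 columns of normalized values beside them were not used.

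Counts of the 16 male libraries were filtered with filterByExpr (minimum count 10, minimum total 15), scaled by TMM and tested with the two-sided quasi-likelihood F test of edgeR 4.0.16 (limma 3.58.1, R 4.3.3), with genotype as a block, within each genotype, and for the interaction. Males and females were compared over 32 libraries. Adjusted p-values are Benjamini-Hochberg values over all genes tested. In simulated data, the fit over the genotypes recovered 89.8% of genes changed by 1 and 100% of those changed by 2 on the log2 scale. False calls were 4.1% over 13973 genes. The interaction test recovered 47% and 78.8%, with 3.1% false calls over 13977 genes. These counts were drawn from the fitted edgeR model, with few genes changed and no outlying libraries. Changes were alike in all genotypes, or in WT males alone for the interaction. The simulated rates of edgeR and DESeq2 hold for that setting only. Of 17490 gene IDs, 17216 matched the annotation BDGP6.54. Counting intervals were exact binomial ones and cover counting error only. Python 3.11.15, pandas 2.3.3, numpy 2.4.6 and matplotlib 3.10.9 were also used.

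Named genes were the 12 highest and 12 lowest called genes with 1 sign in all genotypes, separate arms, a mean of at least 5 CPM and a call without the doubted libraries; called members of the lists (all where 8 or fewer, otherwise the 4 with the largest change); the 6 Hsp70 copies; and the 6 interaction genes with the lowest p at 5 CPM or more. The 12 lowest protein-coding genes and the larval genes were added after the values were seen. Members, lists and tests were chosen with earlier results of these data known. Alternatives were DESeq2 1.42.0, RLE size factors, no filter, removal of small RNA, ribosomal and mitochondrial genes, the replicate number as a block, leaving out libraries and, added after seeing the data, library size alone and the omission of a further library.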

Additional observations from a re-analysis of the deposited data

Results flagged for a closer look

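Among 294 sets of 8 values screened within the exercised or the nonexercised arm, 39 held a library whose gap to the nearest other was above Dixon's limit. Chance gives such a gap in about 1 of 20 sets, and the genes share their libraries.

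Nonexercised attP2 replicate 1 gave 18 high values and 1 low one. It was high for the immune genes AttA (146.5 CPM), AttB (90.97 CPM), AttC (153.4 CPM), DptB (103.4 CPM), CG33470 (358.8 CPM) and IM10 (343.1 CPM) and for the summed immune peptides (3162 CPM). It was also high for Ets21C (5.298 CPM), puc (46.61 CPM), Thor (32.7 CPM), Hsp70Bbb (8.402 CPM) and Cyp6a19 (1.124 CPM). Among female markers it was high at low levels for Cp16 (0.7492 CPM), Cp18 (0.8562 CPM), Cp19 (0.8027 CPM), Cp38 (1.605 CPM), bcd (0.3746 CPM) and the summed yolk and eggshell genes (141.1 CPM). The summed testis genes were low there (4138 CPM).

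Exercised A31P replicate 2 gave 12 high values. They were the eggshell genes Cp16 (165.1 CPM), Cp18 (228.8 CPM), Cp19 (258.9 CPM) and Cp38 (278.4 CPM), the ovarian genes bcd (14.02 CPM), RnrS (59.51 CPM) and plu (4.203 CPM), RpS5b (90.27 CPM), Hsp26 (174.0 CPM) and Cyp6a19 (56.68 CPM), and the summed yolk and eggshell (5619 CPM) and ovarian germline genes (1010.0 CPM).

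The other libraries gave few. Exercised attP2 replicate 2 was high for Hsp70Aa (28.87 CPM) and Hsp70Bc (14.78 CPM), exercised R820W replicate 2 for AttC (411.5 CPM) and exercised R820W replicate 1 for CG18302 (11.91 CPM). Nonexercised WT replicate 2 was high for TotC (186.7 CPM). Nonexercised R820W replicate 1 was high for the summed mitochondrial genes (50620.0 CPM) and low for the summed redox enzymes (2556 CPM), and nonexercised R820W replicate 2 was low for Drsl4 (42.51 CPM).

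The response differed among the genotypes by the edgeR interaction test for Hsp22 (adjusted p = 0.0031511), Act88F (0.0038199), Fhos (0.0038199), CG14207 (0.0039358), CG9281 (0.0078933), CG34423 (0.019457) and Lsp1gamma (0.02597). In each of these every genotype rested on 2 exercised and 2 nonexercised pools. Lsp1gamma was not called without any 1 of the 4 WT libraries, the exercised attP2 libraries, nonexercised attP2 replicate 1 or the nonexercised A31P libraries (adjusted p 0.0570 to 0.148), and Act88F, CG9281 and CG34423 were each lost without at least 1 library.

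The response differed between the sexes for 17 of the 24 genes with the largest changes. Males minus females, the Log2FC difference was 1.27 for Fst, 1.67 for CG43202, 2.26 for Gadd45, 1.07 for Hr38, 2.00 for CG5953 and 2.22 for CG13325. For the noncoding RNAs it was -5.65 for snoRNA:CG32479-a, -4.84 for snoRNA:U3:54Ab, -4.59 for RNaseP:RNA, -6.01 for snoRNA:U3:9B, -7.74 for snRNA:U2:38ABa, -4.78 for snoRNA:U3:54Aa, -6.32 for snRNA:U12:73B, -5.85 for snRNA:U11, -6.88 for snRNA:U2:34ABb, -6.90 for snRNA:U2:34ABc and -4.10 for CR43604. Exercise coincided with the flow cell in both sexes, and exercised males and exercised females were in separate lanes.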

How the results depend on the processing

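The 1610 calls over the 4 genotypes came to 1556 with DESeq2, 1609 with RLE size factors, 1707 without a filter on low counts, 1478 without small RNA, ribosomal and mitochondrial genes, and 1553 with the replicate block. Leaving out each library gave 1496 to 1724. By library size alone, added after seeing the data, the counts were 3383 over the genotypes, 3331 in attP2, 3020 in WT, 3826 in A31P and 1758 in R820W males. Without the 2 doubted libraries, A31P males had 964.

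Counts within genotypes and the interaction leaned on single libraries. Leaving out each in turn gave 543 to 1188 in attP2 males (543 without exercised replicate 2), 580 to 1132 in WT males (580 and 648 without exercised replicates 1 and 2, 593 without nonexercised replicate 1), 778 to 2950 in A31P males (2950 and 898 without exercised replicates 1 and 2, 778 and 850 without nonexercised replicates 1 and 2) and 652 to 1300 in R820W males (652 without exercised replicate 2, 717 without nonexercised replicate 1). A genotype left with 1 pool was assumed to vary like the others. The 18 interaction genes came to 3 without nonexercised WT replicate 1 and 859 without exercised A31P replicate 1, to 96 without both doubted libraries, 186 also without nonexercised attP2 replicate 1, 319 with DESeq2, whose simulated interaction calls were 26.2% false, and 4 with the replicate block. The sex interaction ranged from 3583 to 4831. Apart from the constructions named, the causes were not tested.

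No pairing of the pools by replicate number was seen. Correlations of the deviations of same-numbered exercised and nonexercised pools were 0.05 in attP2, -0.01 in WT, -0.01 in A31P and -0.07 in R820W males. With 2 pools per arm and genotype, these values cannot show that the pools were unpaired. With the replicate block the interaction adjusted p was 0.0191 for Hsp22 and 0.0272 for Fhos, while 5 of the 7 named genes were not called, Act88F and CG34423 at 0.0743, CG14207 at 0.0824, CG9281 at 0.109 and Lsp1gamma at 0.144.

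Of 121 named genes, few changed direction. Without the 2 doubted libraries Cp19, Cp16 and Cp38 had Log2FCs of -0.65, -0.96 and -0.91, and Cp38 had -0.0076 also without nonexercised attP2 replicate 1. Hsp70Bbb had -0.35 with DESeq2 and CG14207 had 0.19 by library size alone. Leaving out each library, Hsp70Aa ranged from -0.49 to 1.92 and Hsp22 from -0.28 to 0.37. Depth limits genes such as upd2 and Fbp1, whose lower arm held 8 reads in all.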

Other observations

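The mitochondrial genome and the nuclear small families outside the lists discussed gave mixed values. Of 15 mitochondrial genes tested, 3 were lower and 1 higher, beside 5.61% and 5.82% of all genes. With the doubted libraries left out, 5 were lower and 1 higher. The ribosomal RNA mt:lrRNA had 3425, 4101 and 6394 CPM in exercised males, against 6674, 7494 and 8098 CPM in nonexercised males (Log2FC -0.75 ± 0.10, edgeR adjusted p = 3.25e-05), with separate arms. mt:ND4L, a subunit gene of complex I, had 3.03, 4.88 and 5.89 CPM in exercised males, against 6.80, 8.06 and 13.4 CPM in nonexercised males (Log2FC -0.96 ± 0.09). It also overlaps mt:ND4 on the same strand. mt:ND2, likewise of complex I, went the other way, with 38.0, 49.5 and 62.7 CPM in exercised males, against 18.0, 25.8 and 40.2 CPM in nonexercised males (Log2FC 0.92 ± 0.13). The list median of -0.26 turned to 0.03 by library size alone.

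Protein-coding genes held 670 of the 820 genes called higher and 525 of the 790 called lower. Other noncoding RNAs, of which 1274 were tested, gave 114 higher (8.95%) and 138 lower (10.8%). Pseudogenes gave 16 higher (14.3%) and 11 lower (9.82%) of 112. The shares of protein-coding genes were 5.42% and 4.25%, so both classes were called more often. The median Log2FCs of these classes, -0.05 and 0.03, lay close to the 0.02 of protein-coding genes.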
